A study of Mus musculus with 2 samples.

Results

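The genes described here encode the hexose and lactate transporters of the mouse testis together with the membrane proteins that carry the lactate transporters to the cell surface. They are 9 genes, chosen by symbol and family, of 43346 genes in the deposited tables: the hexose transporters Slc2a1, Slc2a3, Slc2a5 and Slc2a8, the monocarboxylate transporters Slc16a1, Slc16a3 and Slc16a7, and the partner proteins Bsg and Emb. All 9 symbols were found, with 42 of the 103639 annotated transcripts. Poly(A)-selected RNA of whole testis was sequenced as stranded read pairs of 76 nucleotides in 2 libraries, replicates 1 and 2. Both came from untreated adult C57BL/6J males of 8 weeks, with no engineered allele named. The labels speak of littermates, yet a single donor identifier covers both libraries. The spread between the libraries may therefore not be a spread between animals. There was 1 group, no contrast and therefore no test between conditions.

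Glucose and fructose enter cells through the facilitative transporters of the Slc2a family, which move sugar down its gradient without using energy. Lactate and pyruvate cross membranes together with a proton through the monocarboxylate transporters of the Slc16a family, which reach the cell surface bound to basigin or embigin. In the seminiferous tubule, Sertoli cells take up glucose and release lactate, and spermatocytes and spermatids use that lactate as a fuel.

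Expected counts, the authors' estimates of read pairs per gene, came to 50374324 for replicate 1 and 52788929 for replicate 2. The transporter and partner genes took 0.370% and 0.403% of them. All 8 spermatogonial, 8 spermatocyte, 9 spermatid, 12 Sertoli and 7 Leydig cell markers were detected in both libraries. The libraries differed in some markers of other tissue. The 11 epididymis markers summed to 764 TPM in replicate 1 and 3.74 in replicate 2, with Lcn10 and Spag11b listed at 0 in both. Most of the sum in replicate 1 was Crisp1 at 454 TPM, Spink8 at 194 TPM and Wfdc15b at 105 TPM. Rnase10 had 2.42 and 3.23 TPM and was thus higher in replicate 2, while Lcn5, Lcn8 and Lcn9 had at most 0.11 TPM. The 5 skeletal muscle markers summed to 19.3 and 2.28 TPM, mostly from Acta1 at 13.3 and 0.66 TPM and Ckm at 5.47 and 1.2 TPM. Mb, Tnnt3 and Myh4 were below 1 TPM in both libraries, and Tnnt3 had the higher TPM in replicate 2. The 10 peritubular and stromal markers summed to 351 and 180 TPM. Every level is therefore given for each library apart. In whole tissue, fewer cells of a type and less RNA per cell cannot be told apart.

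Levels are given in TPM, transcripts per 1000000, which corrects for transcript length and can be compared between genes. The 9 genes spanned more than 2 orders of magnitude and fell into a high set and a low set, with 1 gene between them. Bsg, Slc2a3, Slc2a5 and Slc16a7 had mean levels above 100 TPM, Slc2a8 lay between 10 and 100, and Slc16a1, Slc2a1, Emb and Slc16a3 lay below 10. All 9 were detected, defined as at least 1 TPM in both libraries, as were 62.1% of protein-coding genes. The 4 highest genes held 96.5% of the summed level of the 9 genes in replicate 1 and 97.5% in replicate 2, out of sums of 2452 and 2741 TPM. The median level was 49.9 TPM, against 12.9 TPM over detected protein-coding genes.

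**Figure D1:**
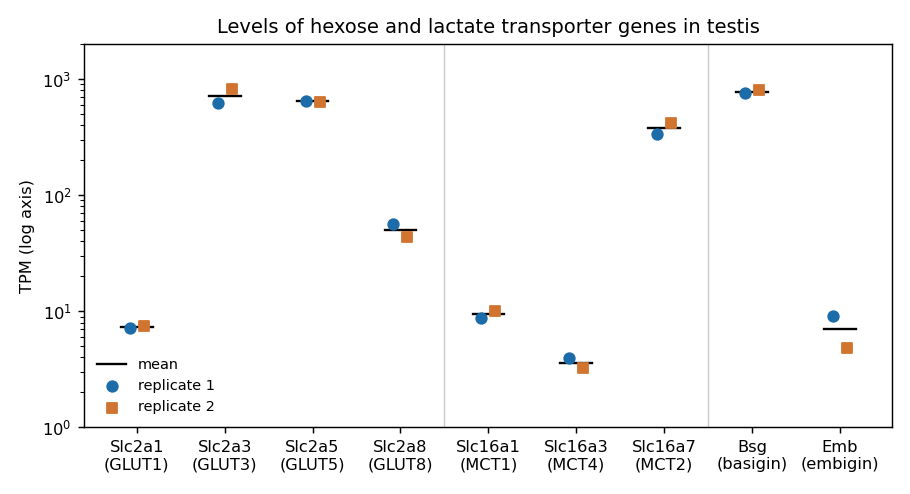
Level of each gene in TPM on a log axis, with 1 circle for replicate 1, 1 square for replicate 2 and a bar at their mean; vertical lines part hexose transporters, monocarboxylate transporters and partner proteins. Each class holds at least 1 gene with a mean above 100 TPM and at least 1 with a mean below 10 TPM.

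The order by mean level was Bsg, Slc2a3, Slc2a5, Slc16a7, Slc2a8, Slc16a1, Slc2a1, Emb and Slc16a3. The ranges of the 2 libraries overlapped between the neighbours Bsg and Slc2a3, Slc2a3 and Slc2a5, and Slc2a1 and Emb, so these neighbours were not ordered beyond their spread. Emb in replicate 1 also lay above Slc16a1 in that library. Slc16a7, Slc2a8 and Slc16a3 held the same place in both libraries.

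Among the hexose transporters, Slc2a3 and Slc2a5 stood far above Slc2a8 and Slc2a1. Slc2a3 encodes GLUT3, a glucose transporter of high affinity known from neurons and sperm. The gene lies on the minus strand at chr6:122727809-122801640 of GRCm38 (mm10). It had 627 TPM in replicate 1 and 814 TPM in replicate 2, a mean of 720 ± 132 (SD, n = 2), the highest of the 9 genes in replicate 2 and the third in replicate 1. These values placed it at percentile 98.8 among detected protein-coding genes. Its expected counts were 69635 and 84718.

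Slc2a3 had 2 abundant transcripts that begin at different exons. Slc2a3-201, with 10 exons and 3959 bases, had 436 TPM in replicate 1 and 493 TPM in replicate 2. It held 65.1% ± 6.36 of the gene's TPM (SD, n = 2) and 93.6% ± 2.11 of its expected counts. Slc2a3-202 had 184 and 279 TPM, 31.8% ± 3.40 of the gene's TPM but 4.86% ± 0.843 of its counts, since it is only 601 bases long and its annotated 3′ end is incomplete. Of its bases 468 are shared with Slc2a3-201, so only 133 bases and their splice junctions set it apart.

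The 5′ end of Slc2a3-202 lies 58895 bases upstream of the start of Slc2a3-201, and its first coding exon, at chr6:122797802-122797879, stands in place of the one at chr6:122742376-122742745. The coding bases of these exons are chr6:122797802-122797822 and chr6:122742376-122742390. The coding starts are shown because they are what differs between these messages. They are spliced sequences of the minus strand from GENCODE M21 transcripts on GRCm38, with the coding bases of the first coding exon in capitals and the first bases of the shared next exon in lower case.
Slc2a3-201: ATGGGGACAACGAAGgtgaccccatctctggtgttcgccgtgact
Slc2a3-202: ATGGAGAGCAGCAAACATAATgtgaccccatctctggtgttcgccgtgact
The capitals give 5 codons in Slc2a3-201 and 7 codons in Slc2a3-202, and the bases after them are the same in both. Relative to library size, Slc2a3-202 was higher in replicate 2 by 0.56 on the log2 scale (95% counting interval 0.49 to 0.63), against 0.16 (0.15 to 0.18) for Slc2a3-201. For each transcript, the TPM intervals deposited by the authors did not overlap between the libraries.

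A lesser Slc2a3 message differed more between the libraries. Slc2a3-203, annotated as a target of nonsense-mediated decay, had 3.24 TPM in replicate 1 and 37.7 TPM in replicate 2, from 146 and 1771 expected counts. It was chosen for description after its values were seen. The deposited intervals ran from 0.862 to 7.62 TPM and from 26.4 to 46.2 TPM and were far apart. The log2 ratio of replicate 2 over replicate 1 was 3.52 (95% counting interval 3.28 to 3.78). That interval covers counting error only and not the error of dividing reads among transcripts: every base of Slc2a3-203 also lies in Slc2a3-201.

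Slc2a3-203 is spliced differently by the loss of the 161-base exon at chr6:122739833-122739993. The junction is shown in both messages, minus strand, with the first 30 bases of the exon that follows in capitals.
Slc2a3-201: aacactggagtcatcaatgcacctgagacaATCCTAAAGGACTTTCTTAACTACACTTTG
Slc2a3-203: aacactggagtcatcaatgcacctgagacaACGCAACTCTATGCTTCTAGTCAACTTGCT
The annotated coding sequence is 1479 bases in Slc2a3-201 and 189 bases in Slc2a3-203. Slc2a3-203 held 0.52% of the gene's TPM in replicate 1 and 4.64% in replicate 2, so the share was low in both libraries.

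Slc2a5 encodes GLUT5, the fructose transporter of the small intestine that is also known from sperm. Located on the plus strand at chr4:150119283-150144169, it had 652 TPM in replicate 1 and 639 TPM in replicate 2, with 49837 and 50073 expected counts. The mean of 646 ± 8.94 (SD, n = 2) put it at percentile 98.6, and the deposited intervals of the libraries overlapped.

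The level of Slc2a5 also came from 2 transcripts of unequal length. Slc2a5-201, the full coding message of 14 exons and 3158 bases, had 382 and 367 TPM. It held 58.0% ± 0.820 of the gene's TPM (SD, n = 2) and 91.3% ± 0.205 of its counts. Slc2a5-204, a processed transcript of 594 bases with no annotated coding sequence, had 270 and 272 TPM, which came to 41.9% ± 0.834 of TPM and 8.71% ± 0.208 of counts. The share of TPM was 41.4% in replicate 1 and 42.5% in replicate 2, and the share of counts 8.57% and 8.86%.

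Slc2a5-204 begins inside intron 8, an intron of 84 bases at chr4:150139547-150139630, and its other 516 bases are exon sequence of Slc2a5-201. The start of Slc2a5-204, plus strand, is shown because its 78 bases in capitals are the only ones not in Slc2a5-201.
Slc2a5-204: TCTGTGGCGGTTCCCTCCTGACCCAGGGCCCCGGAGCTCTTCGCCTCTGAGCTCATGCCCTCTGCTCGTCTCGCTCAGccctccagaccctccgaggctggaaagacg
The bases in lower case belong to the same exon of Slc2a5-204, and in Slc2a5-201 they begin the exon after intron 8. Within this stretch, only reads that touch the 78 bases can tell Slc2a5-204 from Slc2a5-201.

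**Figure D2:**
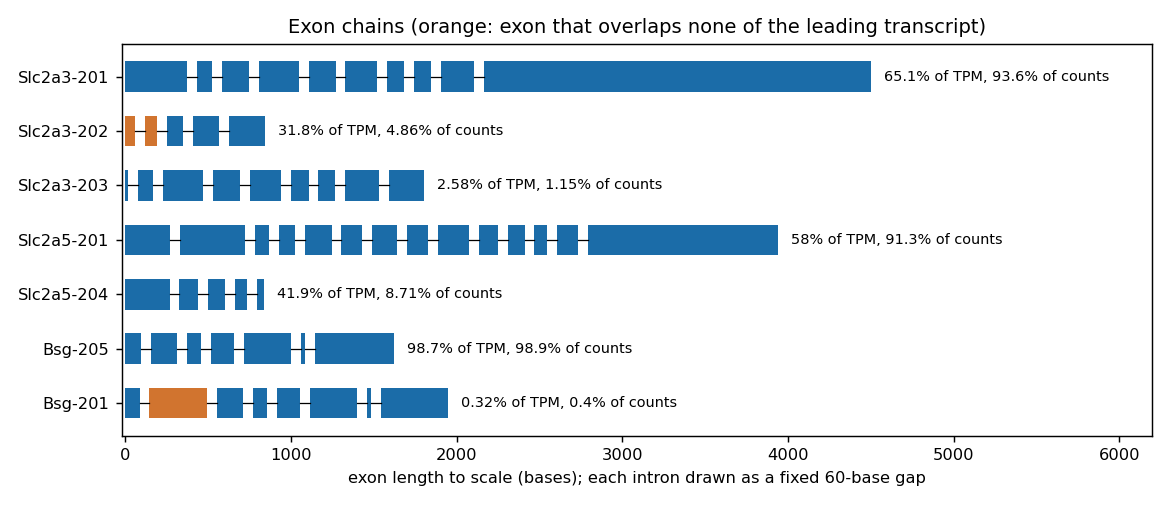
Exons of the Slc2a3, Slc2a5 and Bsg transcripts named in the text, drawn to scale in bases from the 5′ end, with each intron as a fixed gap of 60 bases; orange marks exons that overlap no exon of the gene's leading transcript, and the mean shares of TPM and of expected counts stand at the right. Slc2a3-202 and Slc2a5-204 are the short ones, with 31.8% and 41.9% of TPM but 4.86% and 8.71% of counts.

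Slc2a8 encodes GLUT8, a hexose transporter of inner membranes that is abundant in testis. It lies on the minus strand at chr2:32972990-32982083 and had 55.9 TPM in replicate 1 and 44.0 TPM in replicate 2, a mean of 49.9 ± 8.41 (SD, n = 2). Replicate 1 was the higher and the deposited intervals did not overlap. Slc2a8 lay 11.2-fold below Slc2a3 in replicate 1 and 18.5-fold below it in replicate 2. Slc2a5 exceeded Slc2a8 by 11.7-fold and 14.5-fold. Slc2a8-201 held 93.6% ± 1.17 of the gene's TPM.

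Slc2a1 encodes GLUT1, the glucose transporter of the blood-brain barrier that is also known from Sertoli cells. It lies on the plus strand at chr4:119108711-119137983. Its levels were 7.21 TPM in replicate 1 and 7.52 TPM in replicate 2, a mean of 7.37 ± 0.219 (SD, n = 2), at percentile 36.6. Slc2a3 exceeded it 86.9-fold in replicate 1 and 108-fold in replicate 2. Slc2a1-201 held 97.1% ± 1.20 of the gene's TPM. The antisense genes Gm12868 and Gm12867 overlap Slc2a1 and had at most 0.56 TPM.

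Of the monocarboxylate transporters, Slc16a7 was high and the other two were low. Slc16a7 encodes MCT2, a lactate and pyruvate transporter of high affinity. It lies on the minus strand at chr10:125219270-125389465 and had 333 TPM in replicate 1 and 422 TPM in replicate 2, from 27354 and 36020 expected counts. The mean was 377 ± 62.4 (SD, n = 2), at percentile 97.0, and replicate 2 was the higher with no overlap of the deposited intervals. A single transcript, Slc16a7-202, held 99.75% of the gene's TPM in each library. The annotation used by the authors holds 2 Slc16a7 transcripts, against 6 in GENCODE M21. In GENCODE M21, Slc16a7-201 begins 19719 bases further upstream and has a coding sequence of the same 1452 bases. Its length is 2419 bases there but 3787 bases in the deposited values, so the quantified form differs from this one. Slc16a7-201 had 0.82 and 1.06 TPM and was named after its values were seen.

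Slc16a1 encodes MCT1, the widely expressed lactate transporter, and lies on the plus strand at chr3:104638668-104658462. It had 8.82 TPM in replicate 1 and 10.1 TPM in replicate 2, a mean of 9.44 ± 0.877 (SD, n = 2). Slc16a7 exceeded Slc16a1 by 37.8-fold and 41.9-fold. The gap between these genes was thus alike in the libraries and many times the difference between libraries of either gene. The annotation used by the authors holds 1 Slc16a1 transcript.

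Slc16a3 encodes MCT4, known as the lactate exporter of glycolytic cells, and was the lowest of the 9 genes in both libraries. From the plus strand at chr11:120948480-120960868, it had 3.93 TPM in replicate 1 and 3.24 TPM in replicate 2, a mean of 3.59 ± 0.488 (SD, n = 2), from 245 and 199 expected counts. It was 2.24-fold below Slc16a1 in replicate 1 and 3.10-fold below it in replicate 2. Slc16a7 exceeded it by 84.8-fold and 130-fold.

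At these counts the transcripts of Slc16a3 were not resolved. Slc16a3-202 held 45.5% of the gene's TPM in replicate 1 and 23.6% in replicate 2. Slc16a3-207, whose annotated end is incomplete, held 42.9% and 43.0%. By TPM the leading transcript was thus Slc16a3-202 in replicate 1 and Slc16a3-207 in replicate 2. By expected count Slc16a3-202 led in both libraries, with 64.3% and 35.2% against 21.4% and 22.6% for Slc16a3-207. For both transcripts the deposited intervals of the libraries overlapped.

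**Figure D3:**
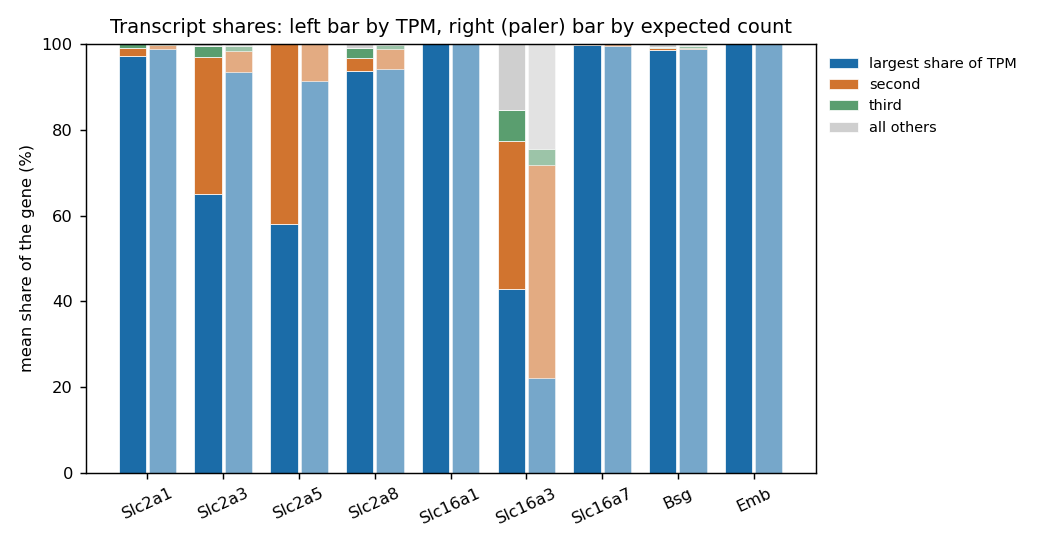
Mean share of each gene's transcripts over the 2 libraries in percent; for each gene the left bar divides the gene by TPM and the right, paler bar by expected count, with the transcripts in order of their share of TPM. The bars of a pair differ most for Slc2a3, Slc2a5 and Slc16a3, while Slc16a1 and Emb have 1 transcript each in the annotation used by the authors.

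Bsg encodes basigin, the immunoglobulin-family partner that brings MCT1 and MCT4 to the cell surface and is needed for male fertility in mice. Located on the plus strand at chr10:79704491-79711969, it had 755 TPM in replicate 1 and 797 TPM in replicate 2, and its mean of 776 ± 29.8 (SD, n = 2) was the highest of the 9 genes, at percentile 98.95. Bsg exceeded the sum of the 3 monocarboxylate transporters by 2.18-fold in replicate 1 and 1.83-fold in replicate 2. Those sums, 346 and 435 TPM, were almost all Slc16a7.

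Bsg-205 held 98.7% ± 0.0141 of the gene's TPM (SD, n = 2), with 745 and 786 TPM. Bsg-201, the form with a further immunoglobulin-like domain that is known from the retina, was at 2.34 and 2.62 TPM, or 0.32% of the gene. It was chosen for description after its values were seen. Its added exon, chr10:79708697-79709044, holds 348 coding bases or 116 codons. The junction after the first exon is shown for both messages, plus strand, with the first 30 bases of the next exon in capitals.
Bsg-205: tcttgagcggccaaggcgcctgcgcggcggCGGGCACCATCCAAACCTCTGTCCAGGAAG
Bsg-201: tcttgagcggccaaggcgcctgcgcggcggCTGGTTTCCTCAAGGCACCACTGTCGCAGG
The bases before the junction are identical, and the deposited intervals of Bsg-201 overlapped between the libraries.

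Emb encodes embigin, the relative of basigin that is known as the partner of MCT2. It lies on the plus strand at chr13:117208536-117274415. It had 9.16 TPM in replicate 1 and 4.87 TPM in replicate 2, a mean of 7.02 ± 3.03 (SD, n = 2). The expected counts were 758 and 420, from 1 Emb transcript in the annotation used by the authors, against 6 in GENCODE M21. Bsg exceeded Emb by 82.4-fold in replicate 1 and 164-fold in replicate 2, so the low level of Emb relative to Bsg held in both libraries while its size did not. The opposite-strand gene Gm17509 overlaps Emb and had at most 0.04 TPM.

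The difference between the libraries was then set beside that of all 15533 detected genes, as the log2 ratio of replicate 2 over replicate 1 after scaling for library size. Of the 9 genes 5 were higher in replicate 2 and 4 were lower. None passed 2-fold in either direction, against 1.66% of detected genes (0.991% with the higher value in replicate 1, 0.67% in the other direction). The 95% counting interval excluded 0 for 8 of the 9, all except Slc2a1, and did so for 57.7% of detected genes. The deposited TPM intervals did not overlap for 6 of the 9, against 36.3%. Such intervals narrow as counts rise: Bsg, with 32199 and 35294 expected counts, had a counting interval that excluded 0 at a ratio of 0.06. The shares over detected genes were not matched for count. The median absolute log2 ratio was 0.21 for the 9 genes and 0.17 for detected genes.

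Emb had the ratio furthest from 0 of the 9, −0.93 (95% counting interval −1.10 to −0.75), or 1.90-fold higher in replicate 1. A ratio at least as far from 0 was found in 2.02% of detected genes. Emb was the only one of the 9 outside the range of −0.70 to 0.64 that held the central 95% of detected genes. The peritubular and stromal markers also moved towards replicate 1: 10 of 10 were higher there, 4 past 2-fold, with a median log2 ratio of −0.88. Of the 11 epididymis markers, 1 was detected in both libraries, Rnase10, and it was higher in replicate 2 (log2 ratio 0.39). The summed level of the 11 was 764 TPM in replicate 1 against 3.74 in replicate 2, carried mostly by Crisp1, Spink8 and Wfdc15b in replicate 1. Macrophage, red blood cell and endothelial markers had medians of −0.18, −0.17 and −0.11, while Sertoli and spermatocyte markers had 0.34 and 0.24. The part of these markers in the difference of Emb was not tested.

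Slc16a7 and Slc2a3 were higher in replicate 2, by 0.32 (0.30 to 0.34) and 0.21 (0.19 to 0.22). Ratios at least as far from 0 were found in 24.8% and 42.8% of detected genes. For Slc2a3 the deposited TPM, which corrects for transcript length, gave a larger ratio of 0.38. The length deposited for the gene was 2954 bases in replicate 1 and 2678 bases in replicate 2. Spermatocyte markers were higher in replicate 2 for 8 of 8 genes, with a median of 0.24 and sums of 804 and 881 TPM. For Stag3 and Ccna1, however, the ratio was only 0.01 and the counting interval held 0. By TPM Stag3 was lower in replicate 2, at 199 and 174 TPM. Sertoli markers were higher there for 12 of 12 genes, with a median of 0.34 and sums of 1705 and 2233 TPM. Leydig markers had a median of 0.12, with 5 of 7 higher in replicate 2. The peritubular and stromal list moved the other way, with a median of −0.88. The part of these markers in the ratios of Slc16a7 and Slc2a3 was not tested.

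Slc2a8 was lower in replicate 2 by −0.34 (−0.41 to −0.28) and Slc16a3 by −0.38 (−0.65 to −0.10). Spermatid markers had a median of −0.04, with 4 of 9 higher in replicate 2 and sums of 71537 and 67801 TPM. The lower sum came mainly from Prm1, at 17056 and 13121 TPM, while Acrv1 had a ratio of 0.55. The spermatocyte, Sertoli and Leydig lists, with medians of 0.24, 0.34 and 0.12, moved the other way from Slc2a8 and Slc16a3. The peritubular and stromal, macrophage, red blood cell and endothelial lists moved the same way, with medians of −0.88, −0.18, −0.17 and −0.11. In each of the last 3 of these lists, 2 detected markers were higher in replicate 2. Spermatogonial markers had a median of 0.03. The part of any of these markers in the ratios of Slc2a8 and Slc16a3 was not tested. Slc16a1 was higher in replicate 2 by 0.17 (0.07 to 0.27). Bsg at 0.06 (0.03 to 0.08), Slc2a1 at 0.06 (−0.09 to 0.21) and Slc2a5 at −0.07 (−0.09 to −0.05) were the closest to 0. The ratios of these 6 transporter and partner genes all lay inside the central range of detected genes.

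**Figure D4:**
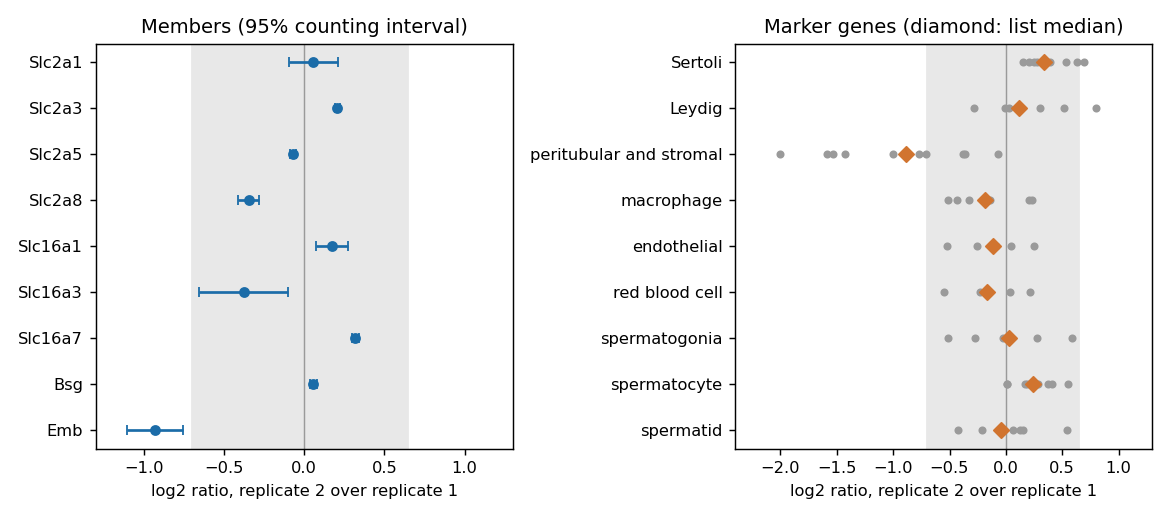
Log2 ratio of replicate 2 over replicate 1: the left panel shows the 9 genes with 95% counting intervals, the right panel the genes of 9 marker lists (grey) with the list median (orange diamond), and the shaded band holds the central 95% of detected genes, from −0.70 to 0.64. Emb at −0.93 and most peritubular and stromal markers lie left of the band.

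Transcript use was compared with that of other detected protein-coding genes with at least 2 annotated transcripts. Of the 7 such genes here, 4 had a leading transcript with over 90% of TPM and 3, Slc2a3, Slc2a5 and Slc16a3, had one with under 75%. The latter was the case for 59% of all such genes, whose median leading share was 67.9%. For Slc2a3 and Slc2a5, the leading transcript's share of counts exceeded its share of TPM by over 25 points, which was so for 6.54% of such genes. Of the 21 transcripts with a mean of at least 1 TPM, 9 had deposited intervals that did not overlap between the libraries, against 28.1% of such transcripts in all. That share was not matched for count either.

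The levels of Slc2a3 and Slc2a5 depended on how their short transcripts were counted. Counting the leading transcript alone gave 465 TPM for Slc2a3 and 374 TPM for Slc2a5, the latter 1.72 times lower than with all transcripts. Slc16a7 at 376 TPM then stood above Slc2a5. Dividing all reads of the gene by the length of the leading transcript gave 498 TPM for Slc2a3 and 410 TPM for Slc2a5, and 7.01 TPM for Slc16a3. These ways of counting were chosen after the data were seen. Both genes stayed far above Slc2a8 and Slc2a1 under each.

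The other genes of these families were low. Of the other 8 Slc2a genes 2 were detected, and the levels of the 8 summed to 6.17 TPM in replicate 1 and 4.1 in replicate 2. The 4 hexose transporters described above summed to 1342 and 1505 TPM. Slc2a4, for the insulin-regulated transporter of muscle and fat, was the highest of the other 8, with 3.2 and 1.63 TPM, more than 2-fold higher in replicate 1 (log2 ratio −1.11). Slc2a10 at 0.84 and 0.22 TPM, Slc2a9 at 0.38 and 0.17 TPM and Slc2a6 at 0.29 and 0.22 TPM were below the detection level in both libraries. The lowest was Slc2a7 with 0.04 and 0 TPM. Slc2a10 had a log2 ratio of −1.94, from 113 and 31 expected counts. Genes below the detection level are left out of the 2-fold counts.

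Of the other 11 Slc16a genes 7 were detected, with sums of 14.0 and 14.4 TPM. The highest by mean level was Slc16a13 at 1.93 and 2.85 TPM, below Slc16a3 in each library. Slc16a8, for a lactate transporter of the retinal pigment epithelium, was listed at 0 in both libraries. Of the 9 sodium-coupled sugar and monocarboxylate transporters of the Slc5a family, 1 was detected, Slc5a4b at 4.24 and 4.74 TPM. Slc5a8 was the lowest of them by mean level, with 0.02 and 0 TPM. No gene of these 3 lists came near the level of Slc16a7 or Slc2a8.

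**Figure D5:**
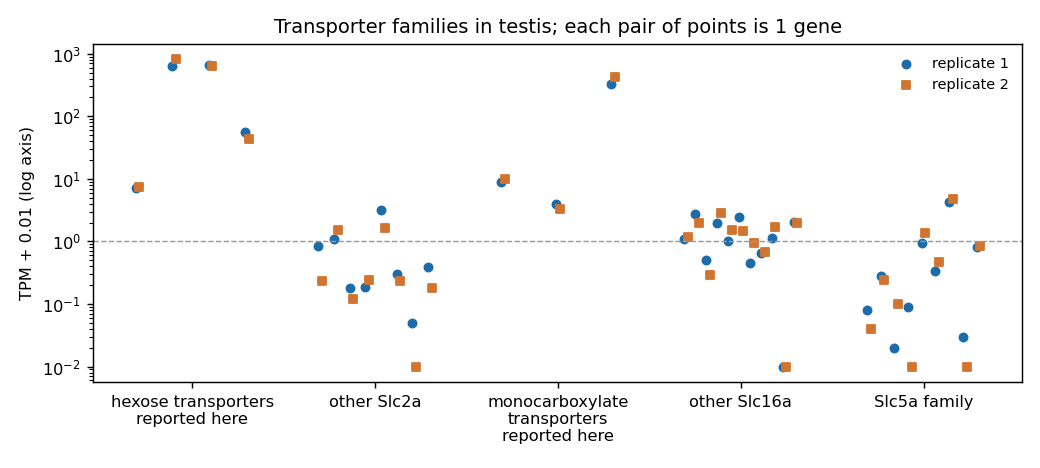
TPM plus 0.01 on a log axis for each gene of the Slc2a, Slc16a and Slc5a lists, circles for replicate 1 and squares for replicate 2, with a dashed line at the detection level of 1 TPM. Genes outside the set described here stay below 5 TPM in both libraries.

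Genes for partner proteins and for enzymes of the same sugars and acids filled 6 further lists. Of their 27 genes 26 had a row in the tables and 22 were detected, against 62.1% of protein-coding genes. With the 3 transporter lists, 32 of 54 measured genes were detected. Of these 32, 2 passed 2-fold between the libraries, both higher in replicate 1, against 1.66% of detected genes. The 3 listed basigin relatives and partners were detected, from Ppia, for the cyclophilin that binds basigin, at 531 and 603 TPM to Slc3a2, for the heavy chain of amino acid exchangers, at 62.0 and 63.7 TPM. Both measured mitochondrial pyruvate carrier genes were detected, Mpc2 at 313 and 277 TPM and Mpc1 at 32.6 and 36.6 TPM. In both pairs of extremes the libraries lay close together compared with the distance between the genes.

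All 5 lactate dehydrogenase genes were detected, with sums of 4364 TPM in replicate 1 and 4906 TPM in replicate 2. Ldhc, for the germ cell form that interconverts lactate and pyruvate, was the highest at 2593 and 3228 TPM. Ldhd, for the enzyme that uses D-lactate, was the lowest at 16.8 and 5.59 TPM and differed by more than 2-fold between the libraries (log2 ratio −1.66). It was, with Slc2a4, 1 of the 2 detected pathway genes past that fold.

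Of the 8 genes for enzymes that receive the sugars, 5 were detected. Hk1, for the hexokinase that traps glucose in the cell, led at 758 and 760 TPM. Hkdc1 was the lowest by mean level at 0.02 and 0.21 TPM. In the polyol pathway, which turns glucose into fructose by way of sorbitol, both genes were high: Sord, for sorbitol dehydrogenase, had 658 and 747 TPM and Akr1b3, for aldose reductase, 208 and 223 TPM.

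Of 6 genes for the traffic and turnover of glucose transporters 5 were detected. Aspscr1, for the tether that holds GLUT4 vesicles inside fat and muscle cells, was the highest at 225 and 200.1 TPM. Trarg1, for another partner of GLUT4 vesicles, was the lowest at 0.3 and 0.16 TPM. Aspscr1 was thus far above Slc2a4 itself in both libraries.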

How the data were processed

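Gene and transcript tables on mm10 with annotation M4, per the deposited readme, were used for 2 testis libraries. Per the file headers, the authors deposited expected counts, which are estimated and not normalised, TPM scaled to 1000000, each transcript's percent of its gene's TPM, posterior means, and TPM interval bounds. The level of these bounds, the aligner and the quantifier were not given in the sources used here. Splice junctions and contigs were not used here.

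Symbols, positions, exons and sequences came from GENCODE M21 (GRCm38) by unversioned identifier, which matched 42462 of 43346 genes. Some transcripts have another length in M21 than in the deposited values, such as Emb-201 with 2923 bases in M21 and 2253 deposited. Spike-ins, 2.68% and 2.51% of counts, were left out of the scaling. Expected counts were rounded, kept at 10 or more in both libraries and scaled by TMM in edgeR 4.0.16 (R 4.3.3). DESeq2 1.42.0 size factors were an alternative. The edgeR biological coefficient of variation was 0.183 over 19534 genes. Log2 ratios have 95% Clopper-Pearson intervals, which cover counting error only. An expected count divides reads shared by several transcripts, so transcript values carry more error than gene values.

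The members and lists were chosen with earlier results of these data known. Named were all 9 genes, transcripts with at least 10% of a gene's TPM, and each list's highest and lowest gene with up to 3 others under 1 TPM. Transcripts named outside this rule are marked as such. Some cell and tissue markers were also named after their values were seen, to show which genes carried a list's sum or ratio. Means have the SD over the 2 libraries. Python 3.11.15, pandas 2.3.3 and scipy 1.17.1 were used.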

Additional observations from a re-analysis of the deposited data

How the results depend on the processing

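No paired analysis was possible because there was 1 group. All 9 genes were detected under every alternative run except a threshold of 5 TPM, which kept 7 and left no gene of the other Slc2a, Slc16a and Slc5a lists; it left 3 in place of 5 genes in each of the hexose entry enzyme and traffic lists. At 0.5 TPM 3 Slc5a genes were detected in place of 1. Scaling TPM to nuclear protein-coding genes raised each level, that of Slc2a3 to 854 TPM. The order by level kept 4 of 9 genes in place without replicate 2 and 7 without replicate 1; Slc2a3 changed place with Slc2a5 and Emb rose above Slc16a1 in the former, and Slc2a3 rose above Bsg in the latter. Ranked by expected count, not per length, 6 kept their place. The share of genes past 2-fold rose from 1.66% to 11.6% when every gene with at least 1 count in each library was used, which takes in many genes of few counts. Of 45 recomputed ratios 42 stayed within their counting interval, and the others were Slc2a3, Slc2a5 and Bsg from deposited TPM, at 0.38, −0.03 and 0.08. No result of the alternatives run reversed. The leading transcript alone, and all reads on its length, were chosen after seeing the data; they moved the levels of Slc2a3, Slc2a5 and Slc16a3, the last to 1.53 TPM and 7.01 TPM. Slc16a3, at 245 and 199 counts, is the gene that depth limits most.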
